A study of Rattus norvegicus with 6 samples.

Results

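The rows described here are those of the deposited gene table that are not typed as protein coding, that carry neither a locus-style name nor the symbol of a microRNA, snoRNA, RT1 or Trim gene, and that held at least 20 reads in each of 6 libraries. Apart from Rn7sl1, the members were thus selected on their measured read counts in both groups, not on a difference between groups. The non-coding RNA Rn7sl1 was taken in at any count, with its difference known. The rule found 143 rows (142 at the minimum, and Rn7sl1) of 40154 in the table, of which 17390 are not protein coding and 2783 also pass the rule on names. The libraries were made by poly(A) selection from atrial fibroblasts of Sprague-Dawley rats aged 1 to 3 days, freed of myocytes by preplating, and the cells were collected 24 h after transfection. One group received si-NC, the non-targeting control siRNA, and the other si-GPD1L, an siRNA against Gpd1l, which encodes a glycerol-3-phosphate dehydrogenase-like enzyme, with 3 libraries each. The si-GPD1L libraries are numbered in the labels, which do not say whether all received the same siRNA. Both groups were therefore transfected cells, no untransfected group was used here, and the labels do not say whether libraries of a group came from separate animals, so p-values measure only the spread between these libraries.

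Non-coding RNAs act as RNA. Ribosomal RNAs and the 7SL RNA are parts of the ribosome and of the signal recognition particle, which brings ribosomes to the endoplasmic reticulum. Host genes such as Gas5 carry small nucleolar RNAs in their introns, and the spliced remainder is a short RNA that ribosomes engage and nonsense-mediated decay removes. Long non-coding RNAs such as H19, Tug1 and Pvt1 are known from imprinting, chromatin and cell growth, and antisense RNAs are read from the strand opposite a gene. RNAs without a poly(A) tail reach a poly(A)-selected library only in small part.

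The name given to these rows as named non-coding genes did not hold for most of them. Of the 143 members, 61 carried only an Ensembl identifier, and 0 of these 61 could be paired with a symbol in the reference table used here. They comprised 33 rows typed as lincRNA (long intergenic non-coding RNA), 18 typed as processed transcript and 10 typed as antisense RNA. Another 37 members carried symbols such as Huwe1 and Prrc2c, of which RefSeq lists 34 as protein coding. The remaining members were 17 long non-coding RNAs with a symbol of their own, 21 pseudogenes, and 7 rows of rRNA, 7SL and tRNA.

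The total count per library ran from 16892255 to 20149732, and members took 1.06% to 1.48% of it. The 10 fibroblast markers summed to 66848 to 83019 CPM (reads scaled to a common library total). Gpd1l itself held 265, 314 and 321 reads in si-NC and 202, 229 and 303 in si-GPD1L, and the normalized counts of the groups overlapped (log2 fold change -0.31 with a standard error of 0.15, adjusted p = 0.234 by edgeR's quasi-likelihood test). An exact two-sided permutation test gave p = 0.2, where 3 against 3 libraries cannot go below 0.1.

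The microRNAs and the promoter window shown here belong to the locus of Vof16, the long non-coding RNA with a symbol of its own whose change passed edgeR's quasi-likelihood test. The long RNA Lnc215 spans chr8:45691196-45809133 on the plus strand in the coordinates of the deposited table (build rn6), and the rows of Mir100, Mirlet7a-2, Mir125b1 and Vof16 (chr8:45798356-45800462) lie inside it on the same strand. The mature microRNAs are printed because they are processed from hairpins of this locus and repress mRNAs through their seed (bases 2 to 8, in capitals), which differs between all 3. They were taken from RefSeq. For Mir125b1 the product of the 3p arm is printed, and the product of the 5p arm of the same hairpin is not.
rno-miR-100-5p: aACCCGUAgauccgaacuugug
rno-let-7a-5p: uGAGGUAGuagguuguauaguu
rno-miR-125b-1-3p: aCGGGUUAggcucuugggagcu
The window from 250 bases before to 50 bases after the start of Vof16 is printed because it holds the whole hairpin of Mir125b1. It lies at chr8:50849882-50850181 on the plus strand of GRCr8, the build of the RefSeq table, and not of the deposited files. The 87 bases of the hairpin are in capitals and end 9 bases before the start.
Vof16: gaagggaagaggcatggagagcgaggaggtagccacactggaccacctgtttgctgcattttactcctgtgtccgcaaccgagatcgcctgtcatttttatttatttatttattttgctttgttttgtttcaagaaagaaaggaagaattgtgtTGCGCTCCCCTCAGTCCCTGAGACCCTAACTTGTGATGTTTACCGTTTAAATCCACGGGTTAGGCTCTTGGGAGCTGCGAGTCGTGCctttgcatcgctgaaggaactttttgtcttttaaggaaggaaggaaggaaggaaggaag

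Vof16, an RNA first described in brain ischemia, was higher in si-GPD1L. It held 421, 457 and 471 reads in si-NC, against 669, 741 and 639 reads in si-GPD1L. All si-GPD1L libraries lay above all si-NC libraries. Scaled to the mean library size, these were 453 ± 34.1 and 680.2 ± 46.2 normalized counts (mean ± SD, n = 3), a 1.5-fold difference (log2 fold change 0.59 with a standard error of 0.09, adjusted p = 0.00201 by edgeR's quasi-likelihood test). Lnc215, whose span holds Vof16, held 1426, 1209 and 1213 reads in si-NC and 1453, 1480 and 1320 in si-GPD1L, and its groups overlapped in normalized counts. Its log2 fold change was 0.13 (standard error 0.09, adjusted p = 0.422). The reads on Vof16 came to 0.295, 0.378 and 0.388 of those on Lnc215 in the control and 0.460, 0.501 and 0.484 after si-GPD1L, so that this ratio did not overlap between the groups. The difference between both fold changes was not tested. The rows of the microRNA hairpins held few reads in these libraries, with at most 3 for Mir100, 0 in every library for Mirlet7a-2 and at most 7 for Mir125b1. Mature microRNAs have no poly(A) tail, and their levels were not measured here. The summed levels of markers of 3 of 4 other cell types also separated the groups, with every marker detected. The 10 endothelial markers summed to 106 to 129 CPM in si-NC, against 143 to 148 in si-GPD1L. The 8 smooth muscle and pericyte markers were lower in si-GPD1L (4779 to 5351 against 4520 to 4700 CPM), as were the 10 cardiomyocyte markers (1869 to 1988 against 1708 to 1863), while the 10 macrophage markers overlapped. The smooth muscle list includes Acta2, the gene of α-SMA, which the paper measured in atrial fibroblasts. Its sum can therefore come from fibroblasts as well as from other cells. The part of these marker differences in the rise of Vof16 was not tested.

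Across all members the calls were about as frequent as across the table. Of the 143 members, 9 had an adjusted p under 0.05, or 8 of the 142 without Rn7sl1 (5.63%), against 6.36% of the 14852 genes tested. Higher in si-GPD1L were 6 of 143, against 4.03% of all genes tested, and lower were 3, Rn7sl1 among them, against 2.33%. An absolute log2 fold change over 1 was reached as well by 3 members, or 2 of the 142 without Rn7sl1, against 1.62% of all genes tested. The groups did not overlap for 35 of 143 members (24.5%), against 29.0% of all genes tested. The median log2 fold change was -0.0048 over the members and -0.0049 over all genes tested. The minimum of the rule was set on both groups alike and used no difference between them, but it left out 9 rows that reached 20 reads in all si-NC libraries alone, Rn7sl1 among them, and 10 that did so in all si-GPD1L libraries alone.

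**Figure D1:**
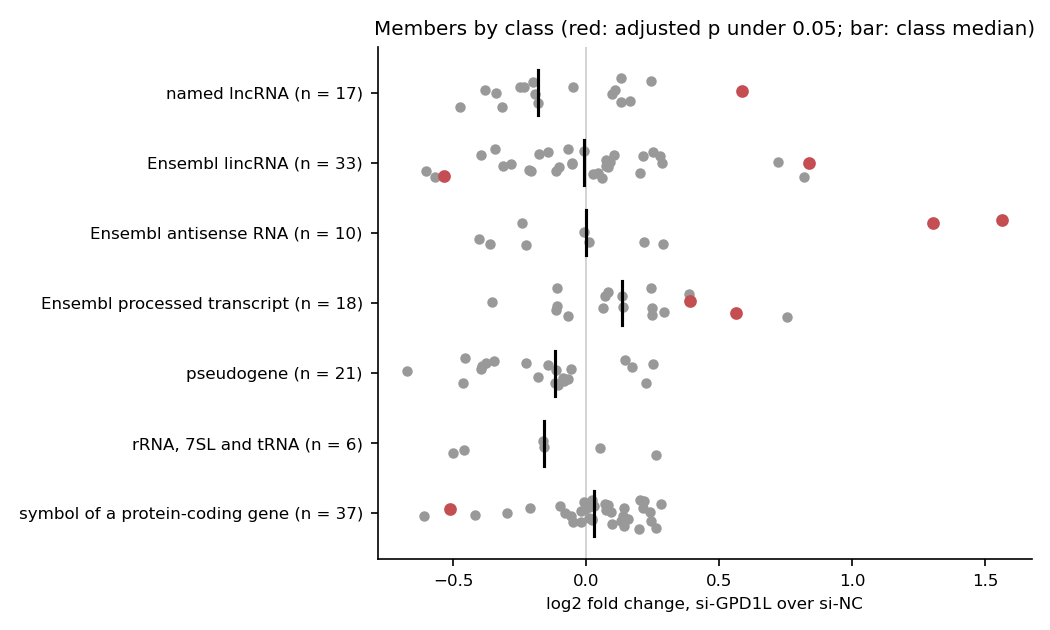
The log2 fold change of si-GPD1L over si-NC (horizontal axis) is shown for each of the 142 members at the count minimum, by class, with class medians as black bars and members at an adjusted p under 0.05 in red. The 8 red points lie in 5 of the 7 classes, and the pair farthest to the right are antisense rows at 1.30 and 1.56.

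Among the 17 long non-coding RNAs with a symbol, Vof16 alone was called by edgeR's quasi-likelihood test (5.88%, against 6.36% of all genes tested). The log2 fold changes of 10 of the 17 lay below 0 (class median -0.18), against 7558 of all 14852 genes tested (median -0.0049). Gas5, a growth-arrest RNA and snoRNA host, held 3026, 2106 and 2216 reads in si-NC and 1732, 2089 and 1889 in si-GPD1L. Its normalized counts were 2461 ± 461 and 1891 ± 6.89 (n = 3). The groups did not overlap, with si-NC 1 far above the other two si-NC libraries (log2 fold change -0.38, standard error 0.11, adjusted p = 0.0557 by edgeR's quasi-likelihood test, which missed the threshold). Gas5 was called by DESeq2's Wald test (adjusted p = 0.0161) and by edgeR's exact test (adjusted p = 0.0176). Its log2 fold change was -0.22 without si-NC 1 (adjusted p = 0.0108 by edgeR's quasi-likelihood test), and -0.14 with the trend on gene length removed (adjusted p = 0.210).

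Dancr, another snoRNA host, known for holding progenitor cells undifferentiated, held 201, 189 and 175 reads against 153, 159 and 147. Its groups did not overlap, and its log2 fold change was -0.32 with a 95% interval from -0.59 to -0.04 (adjusted p = 0.163 by edgeR). With the trend on gene length removed it was -0.12 (adjusted p = 0.588). The third host measured, Snhg4, lay just inside the minimum with 28, 36 and 32 reads against 32, 32 and 21. Its whole span lies within Matr3 on the same strand, and it held 0.0075 to 0.015 of the reads of Matr3, so reads of both rows may be shared. Of the 12 core proteins that bind snoRNAs, 10 were tested and 0 were called by edgeR's quasi-likelihood test, DESeq2 or edgeR's exact test. In the first test 2 of the 10 had an unadjusted p under 0.05, against 3324 of all 14852 genes tested. Nop10, a subunit of the box H/ACA particles, had the smallest adjusted p of the 10 (0.106, log2 fold change -0.27).

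H19, the maternally expressed imprinted RNA, was the only one of 11 listed imprinted non-coding RNAs that the table held under its symbol. It held 1096, 990 and 1188 reads in si-NC and 881, 933 and 1098 in si-GPD1L, and the groups overlapped (log2 fold change -0.18, interval -0.38 to 0.02, adjusted p = 0.276 by edgeR). The whole span of H19 lies within the row of Cttn on the same strand, so part of their reads may be shared. H19 held 1.59 to 2.49 times the reads of Cttn. Apeg3, the antisense RNA of the imprinted gene Peg3, held 235, 217 and 274 reads against 179, 227 and 175. Its normalized counts, 243 ± 21.1 and 192 ± 16, did not overlap, and its log2 fold change of -0.34 did not pass the test (adjusted p = 0.109 by edgeR). Peg3 on the other strand, which spans all of Apeg3, had a log2 fold change of -0.15 (adjusted p = 0.316). Among 16 imprinted protein-coding genes tested, 1 was called by edgeR's quasi-likelihood test and 2 each by DESeq2 and edgeR's exact test, where the first test called 6.36% of all genes. The gene called by the first test was Impact, a translational regulator, which fell (log2 fold change -0.35, adjusted p = 0.0149 by edgeR).

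Tug1, a nuclear and cytoplasmic RNA of the taurine-upregulated locus, held 1081, 780 and 893 reads in si-NC and 678, 861 and 833 in si-GPD1L (log2 fold change -0.23, adjusted p = 0.189 by edgeR). A lincRNA member under an Ensembl identifier covers the whole span of Tug1 on the same strand, and held 1.14 times its reads in si-NC 1. Its log2 fold change was -0.18, and these rows are not independent readings. Nudt21, which encodes a cleavage factor subunit and is on the list of paraspeckle proteins, fell (log2 fold change -0.27, adjusted p = 0.0434 by edgeR).

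Pvt1, the long RNA beside the Myc locus, held 539, 418 and 445 reads against 553, 586 and 445, with overlapping groups (log2 fold change 0.16, interval -0.10 to 0.43). Ftx, of the X-inactivation centre, held 114, 77 and 71 reads against 89, 79 and 87 (log2 fold change -0.05, interval -0.50 to 0.40). Khps1a, antisense to Sphk1, and Zbtb11os1, opposite Zbtb11, had log2 fold changes of 0.11 and 0.24 and were not called. The other members of this class were Crnde, Tincr, Lnc134, Thumpd3-as1 and Bc1, with log2 fold changes from -0.47 for Bc1 to 0.13 for Tincr and adjusted p-values of 0.347 or more by edgeR.

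**Figure D2:**
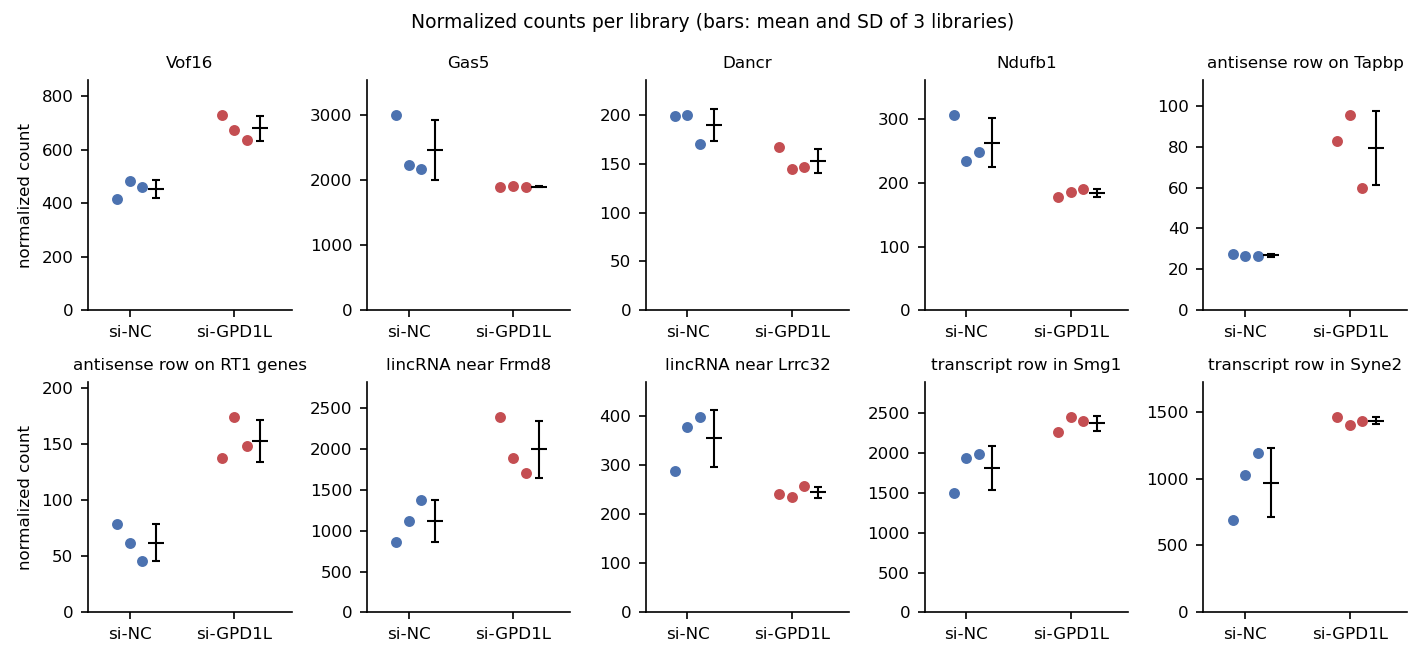
Each panel shows the normalized count (vertical axis, from 0) of a member in the 3 si-NC libraries (blue) and the 3 si-GPD1L libraries (red), with the mean and SD beside the points. The groups do not overlap in any of the 10 panels, of which Gas5 and Dancr did not pass the test, and the si-NC libraries spread more widely than the si-GPD1L libraries for Gas5 (SD 461 against 6.89) and the Syne2 row (SD 256 against 26.7).

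The members with the highest fold changes were antisense rows on chromosome 20, in the rat major histocompatibility complex. ENSRNOG00000061991.1 (chr20:5467942-5468658, plus strand) lies with 84.1% of its span on Tapbp, which is read from the minus strand and encodes tapasin, a chaperone that loads peptides onto class I molecules. It held 28, 25 and 27 reads in si-NC and 76, 105 and 60 in si-GPD1L. The lowest si-GPD1L library, at 60 reads, lay well above the highest si-NC library, at 28. The normalized counts were 26.8 ± 0.741 and 79.4 ± 18, on the log2 scale a difference of 1.56 (standard error 0.23, adjusted p = 0.00144 by edgeR). Tapbp moved by 1.41 (standard error 0.10, adjusted p = 1.36e-06), and the row held between 0.0463 and 0.0652 of the reads of Tapbp in each library.

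ENSRNOG00000058784.1 (chr20:3170034-3199279, minus strand) overlaps the class I genes RT1-N3, RT1-S3 and RT1-T24-4 on the opposite strand. Its overlap with RT1-N3 is 912 bases, and its largest is 9779 bases, with LOC360231, which is not typed as protein coding. The antisense row held 80, 58 and 47 reads in si-NC and 126, 191 and 148 in si-GPD1L, and the groups did not overlap. The fitted log2 difference was 1.30 (standard error 0.19, adjusted p = 0.00144 by edgeR). Beside it stood 1.72 for RT1-N3, 3.76 for RT1-S3, 2.74 for RT1-T24-4 and 2.32 for LOC360231. Class I genes include near-identical copies among which reads may have been split. Whether counting used strand is not given in the sources used here, so reads of these antisense rows and of the genes opposite them cannot be told apart. Both rows moved with the interferon-stimulated genes, whose 15 listed members summed to 159 to 180 CPM in control libraries and 1496 to 1845 with si-GPD1L, and the part of that response was not tested. The other 8 antisense members had log2 fold changes from -0.40 to 0.29 and were not called.

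A cluster of 3 lincRNA rows on the minus strand of chromosome 1, near Frmd8, held the most reads of any lincRNA, and 1 of the 3 rose. In the direction of reading, the first row (chr1:221158098-221158792) held 7737, 4709 and 5074 reads in si-NC and 5343, 5254 and 4643 in si-GPD1L, with a log2 fold change of -0.21 (adjusted p = 0.446 by edgeR). The second (chr1:221154561-221156910) held 5101, 4327 and 5597 against 6661, 6346 and 5360, with a log2 fold change of 0.28 that did not pass the test (adjusted p = 0.145 by edgeR). The third (chr1:221151827-221153278) held 868, 1052 and 1412 reads against 2190, 2083 and 1706, and here the groups did not overlap. Its log2 fold change was 0.84 (standard error 0.15, adjusted p = 0.00651 by edgeR). The library si-NC 1 was the highest of all 6 for the first row and the lowest for the third. Without si-NC 1 the third row had a log2 fold change of 0.67 (adjusted p = 0.00023). Differences between the rows in fold change were not tested. Frmd8, a protein-coding gene, had a log2 fold change of 0.06 and was not called. Whether these rows are parts of 1 transcript is not given in the sources used here.

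Of the 33 lincRNA rows, 2 were called (6.06%, against 6.36% of all genes tested), and 1 of them fell. ENSRNOG00000057308.1 (chr1:163459074-163461083, plus strand), which begins 1648 bases beyond Lrrc32, a receptor that holds latent TGF-beta at the cell surface, held 292, 357 and 407 reads in si-NC and 221, 259 and 258 in si-GPD1L. The groups did not overlap (log2 fold change -0.54, standard error 0.12, adjusted p = 0.0256 by edgeR), while Lrrc32 itself was at 0.01. Its log2 fold change was -0.51 without si-GPD1L 2 (adjusted p = 0.135) and -0.42 with the trend on gene length removed (adjusted p = 0.106). A further lincRNA row beside Cd99 (chr20:56198049-56199332) held 121, 111 and 95 reads against 72, 75 and 71, and just missed the threshold (log2 fold change -0.60, adjusted p = 0.0526). The row with the widest spread among lincRNAs lies within Ankrd45 (71, 30 and 30 reads in si-NC, a coefficient of variation of 52.5%), and its log2 fold change of -0.39 had an interval from -1.18 to 0.40.

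The processed-transcript rows followed the protein-coding gene they lie on. Of these 18 members, 17 share strand and span with a protein-coding row, among them Col6a3, a chain of collagen VI, Syne1 and Syne2, the nesprins that tie the nucleus to the cytoskeleton, and Smg1, the kinase of nonsense-mediated decay. The largest, within Col6a3, held 22407 to 35071 reads in si-NC, against 28749 to 34878 in si-GPD1L, which is 0.859 to 0.872 of the reads of Col6a3 in every library. Over the 17 pairs the log2 fold changes of row and gene differed by 0.020 in the median, with a Pearson correlation of 0.94 across pairs that share reads, and that are therefore not independent. On all 29 same-strand pairs the median difference was 0.053, and on 33 opposite-strand pairs it was 0.15.

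Of these 18 rows 2 rose by edgeR's quasi-likelihood test (11.1%, against 4.03% of all genes tested). The row within Syne2 held 697, 967 and 1222 reads in si-NC and 1336, 1544 and 1435 in si-GPD1L (log2 fold change 0.56, standard error 0.15, adjusted p = 0.0404 by edgeR). Syne2 itself was at 0.51 with an adjusted p of 0.0613, and the row held 0.620 to 0.676 of the reads of the gene. The row within Smg1 held 1510, 1836 and 2042 reads against 2072, 2692 and 2411 (log2 fold change 0.39, standard error 0.10, adjusted p = 0.0378 by edgeR), beside 0.21 for Smg1 (adjusted p = 0.0903). In both rows si-NC 1 was the lowest library.

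**Figure D3:**
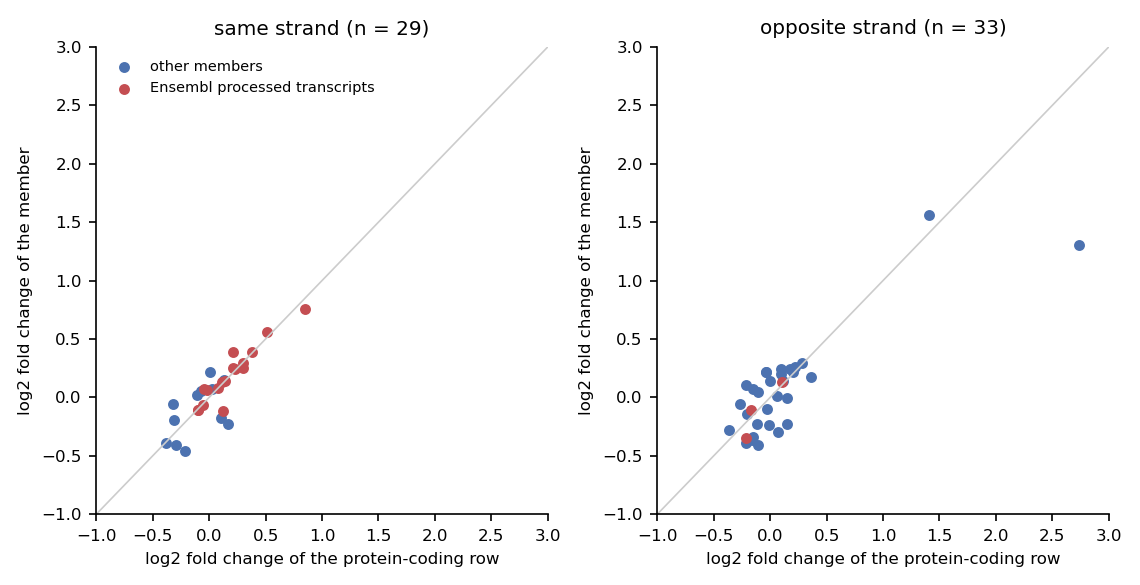
The log2 fold change of each member (vertical axis) is plotted against that of the protein-coding row it overlaps most (horizontal axis), for 29 pairs on the same strand and 33 on opposite strands, with the line of equality in grey. Processed-transcript rows (red) lie along the line, and the pair of antisense rows in the histocompatibility complex stand apart at 1.56 and 1.30 on the vertical axis.

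Of the 37 rows under other symbols, Ndufb1 alone was called by edgeR's quasi-likelihood test (2.70%, against 6.36% of all genes tested). Ndufb1, a subunit of respiratory complex I, is typed as a long non-coding RNA in the deposited table (chr6:125861219-125870231). It held 310, 221 and 255 reads in si-NC and 163, 204 and 191 in si-GPD1L, without overlap, and its normalized counts were 263 ± 38.3 and 185 ± 6.5 (log2 fold change -0.51, standard error 0.12, adjusted p = 0.0306 by edgeR). The size of this fall changed with the length trend described below, to -0.28 with the trend removed (adjusted p = 0.133). Huwe1, a ubiquitin ligase of great length, held 4790, 5853 and 7116 reads against 6462, 7754 and 7048. Its log2 fold change was 0.24 (adjusted p = 0.234), with normalized counts of 5958 ± 1123 and 7042 ± 6.68. Prrc2c, a protein of stress granules, had a log2 fold change of 0.28 (adjusted p = 0.147). Saysd1 had the lowest value of the class with a log2 fold change of -0.61 and 90, 93 and 82 reads against 51, 81 and 45 (adjusted p = 0.101 by edgeR). Asxl3, at the minimum itself with 20 reads in si-GPD1L 3, held 41 to 56 reads in the other 5 libraries.

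None of the 21 pseudogenes was called by edgeR's quasi-likelihood test, DESeq2 or edgeR's exact test. In the first test 4 of the 21 had an unadjusted p under 0.05, against 3324 of all 14852 genes tested. The log2 fold changes of 17 lay below 0 (class median -0.12), against 7558 of all 14852 genes (median -0.0049). Most of the pseudogenes are copies of spliced mRNAs and share sequence with the parent gene, so their counts are uncertain. The lowest was Uchl3-ps1 (56, 89 and 97 reads against 31, 65 and 59, log2 fold change -0.67, adjusted p = 0.150), and the highest Grlf1-ps1 (0.25). Calm-ps2, related to the calmodulin genes, held the most reads (1066 to 1491 in si-NC, against 1064 to 1299 in si-GPD1L, log2 fold change -0.11).

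The cytoplasmic rRNA rows were among the 5 members with the most reads, and varied widely between the si-NC libraries. Rn18s, the small-subunit rRNA, had a coefficient of variation of 66.6% in si-NC, the highest of the members after Rn7sl1. It held 20240, 34516 and 8182 reads in si-NC and 18025, 13928 and 14668 in si-GPD1L. The si-NC libraries thus differed 4.22-fold from lowest to highest and the si-GPD1L libraries 1.29-fold, and the si-NC range enclosed the other. Rn28s, the large-subunit rRNA, held 20342, 34014 and 19966 reads against 29698, 21825 and 26089. Reads on Rn28s came to 1.01, 0.985 and 2.44 times those on Rn18s in the control and 1.65, 1.57 and 1.78 times after si-GPD1L. The precursor row Rn45s, which spans both, held 1.01 times their summed reads in each library, so reads on overlapping rows had been counted on each. None of these 3 rows was called (log2 fold changes -0.46, 0.05 and -0.16).

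Mitochondrial rRNA varied less than Rn18s in si-NC, but not in si-GPD1L for Rnr1. The coefficient of variation of Rnr1 was 8.74% in si-NC and 27.2% in si-GPD1L, against 23.0% for Rn18s in si-GPD1L. Rnr1 (small subunit) held 3463, 3326 and 3051 reads in si-NC and 4779, 3601 and 3428 in si-GPD1L (log2 fold change 0.26, adjusted p = 0.319 by edgeR), and Rnr2 (large subunit) had a log2 fold change of -0.16. The reads on Rnr2 were 6.29, 5.01 and 7.07 times those on Rnr1 in si-NC and 4.34, 4.77 and 4.63 times in si-GPD1L, so this ratio was higher in each si-NC library. Trnp, the mitochondrial proline tRNA, held 226, 137 and 201 reads against 122, 155 and 126, with normalized counts that did not overlap (log2 fold change -0.50, adjusted p = 0.0845, which missed the threshold by edgeR's quasi-likelihood test). Of the 6 rRNA and tRNA rows, 0 were called by that test or by DESeq2, and 1 by edgeR's exact test. In the quasi-likelihood test 1 of the 6 had an unadjusted p under 0.05, against 3324 of all 14852 genes tested.

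Rn7sl1, the 7SL RNA, was admitted to the members by name with its difference known, so its values are a description. Its 3 si-NC libraries differed 26.4-fold among themselves and its 3 si-GPD1L libraries 35.7-fold, from 7 to 250 reads, with coefficients of variation of 135% and 143%. Genes of like mean count had median coefficients of 8.14% and 2.78%. The highest si-GPD1L library, at 250 reads, lay below the lowest si-NC library at 1331. Rmrp, the RNA of RNase MRP and also a product of RNA polymerase III without a poly(A) tail, lay just outside the rule with a lowest count of 18. It held 2892 reads in si-NC 1 but 47 and 20 in the other si-NC libraries and 18 to 25 in si-GPD1L, so the library that was high for Rmrp was not the one that was high for Rn7sl1. Bc1, a short RNA of the same polymerase with an internal A-rich stretch, held 59, 33 and 48 reads against 38, 26 and 37. Of the 8 tested proteins of the signal recognition particle and its receptor, 0 were called by edgeR's quasi-likelihood test and 1 by DESeq2 and by the exact test. In the first test 3 of the 8 had an unadjusted p under 0.05, against 3324 of all 14852 genes tested. Srp14 and Srp9, which bind the Alu end of 7SL RNA, stood at -0.36 and -0.38 on the log2 scale (adjusted p = 0.0724 and 0.110).

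**Figure D4:**
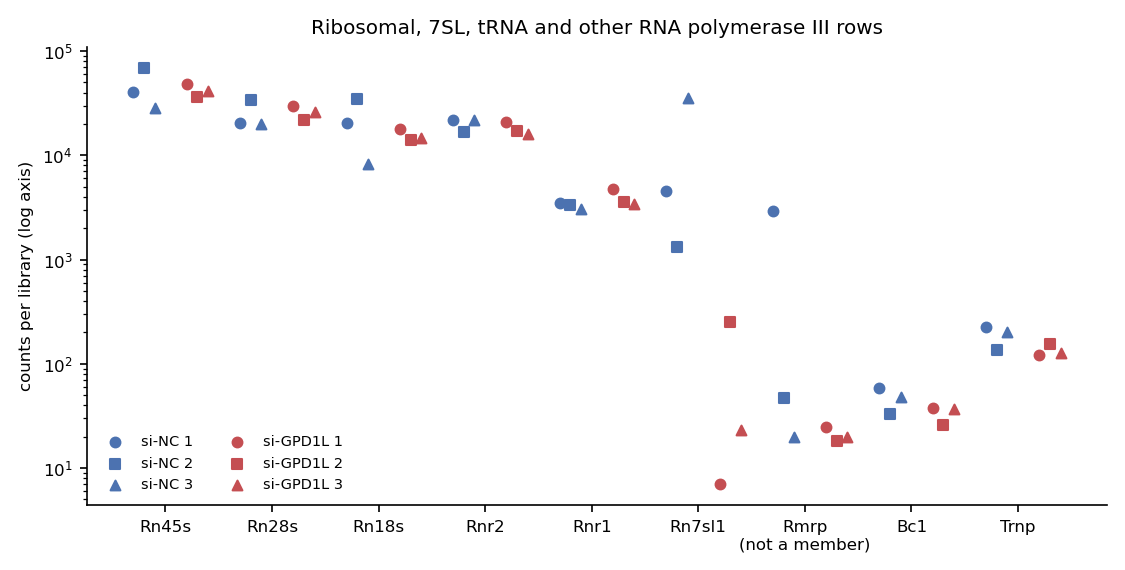
Deposited counts per library (vertical axis, log scale) are shown for ribosomal, mitochondrial and short RNA rows, in si-NC (blue) and si-GPD1L (red), with a marker shape for each replicate number. Rn7sl1 spans 1331 to 35190 reads in control libraries and 7 to 250 in si-GPD1L, and Rmrp is high in si-NC 1 alone, at 2892 reads.

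The deposited gene length moved with the libraries, and with si-NC 1 most of all. Members shorter than 1000 bases (n = 41, without Rn7sl1) lay in the median 0.15 above the mean of all 6 libraries on the log2 scale in si-NC 1, and members of 5000 bases and over (n = 27) lay 0.17 below it. The same medians over all genes tested were 0.21 above and 0.13 below. In si-NC 3 they were -0.01 for short and 0.06 for long members. The median log2 fold change of the groups was -0.21 for members under 1000 bases and 0.07 for those of 5000 bases and over, against -0.15 and 0.06 over all genes tested. Gas5 at 429 bases, Ndufb1 at 447 and Dancr at 563 belong to the short members, and Huwe1, Prrc2c and the rows within Syne2 and Smg1 to the long ones. The part of length in these results was not tested, beyond the values given with its trend removed.

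**Figure D5:**
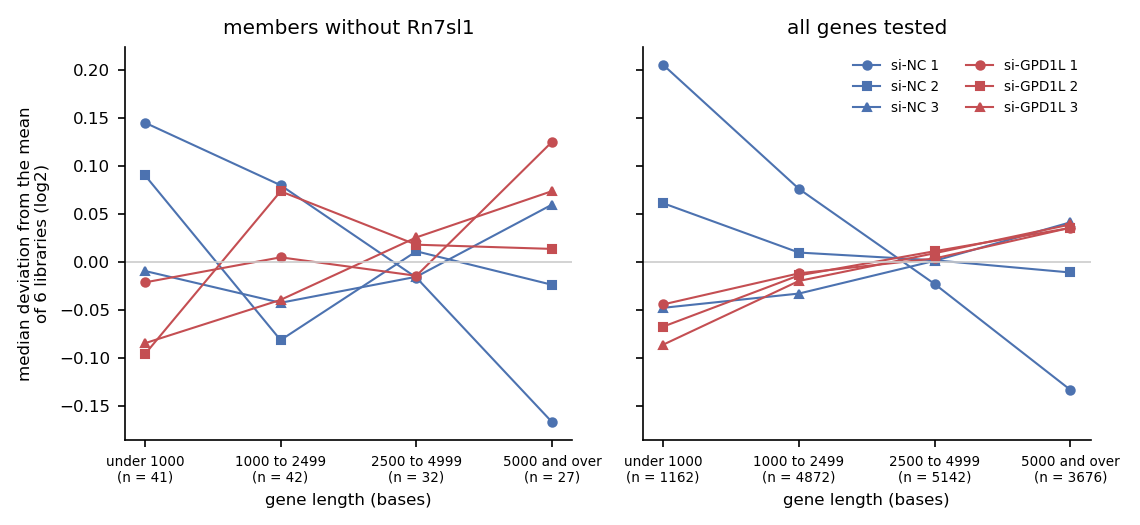
The median deviation of normalized counts from the mean of the 6 libraries (log2, vertical axis) is shown by gene length in bases for the members (left) and all genes tested (right), with a line for each library. The line of si-NC 1 falls from 0.15 for members under 1000 bases to -0.17 for those of 5000 and over, and from 0.21 to -0.13 over all genes tested.

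The spread within groups was wider in si-NC. The median coefficient of variation of the 142 members at the minimum was 13.9% in si-NC and 9.51% in si-GPD1L, against 10.8% and 6.94% over all genes tested, and 97 of the 142 (68.3%) varied more in si-NC, against 66.0% of all genes tested. By class, the median in si-NC ran from 9.05% for rows under other symbols to 29.1% for rRNA and tRNA. The members just inside the minimum were Asxl3 with a lowest count of 20, Snhg4 with 21, and 2 lincRNA rows with 22. Just outside stood Cox6b1, Matr3-ps1 and a processed-transcript row, each with a lowest count of 19.

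RefSeq promoter windows were found for 43 members. On either strand, the letters CCAAT occurred in 15 of the 43 windows (34.9%), against 37.7% of 27457 promoter windows of the same length. CACGTG, an E-box, occurred in 4 (9.30%, against 6.65% of all), TATAAA in 4 (9.30%, against 14.3%), and the core of the interferon-stimulated response element in 3 (6.98%, against 3.77%). None of these 3 was among the 15 long non-coding RNAs with a window. A C followed by at least 4 pyrimidines marks mRNAs of the translation machinery and many snoRNA hosts. Exactly at the annotated start, it occurred in 1 of the 43 and in 2.63% of all windows, and at neither Gas5 nor Dancr. Other positions were not searched. In the Gas5 window printed below, such a run (cctttc) lies shortly before the annotated start, so its absence holds for that position alone. The window of Gas5 (chr13:75836713-75837012 on the plus strand, GRCr8) is printed because Gas5 held the most reads of the long non-coding RNAs with a symbol. It held none of the 4 motifs, which would be in capitals.
Gas5: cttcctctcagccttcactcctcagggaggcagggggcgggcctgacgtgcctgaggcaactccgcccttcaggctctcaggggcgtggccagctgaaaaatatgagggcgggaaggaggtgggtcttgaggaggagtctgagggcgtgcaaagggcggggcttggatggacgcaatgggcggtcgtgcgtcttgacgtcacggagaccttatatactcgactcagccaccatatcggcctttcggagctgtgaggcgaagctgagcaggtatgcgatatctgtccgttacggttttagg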

How the data were processed

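Poly(A)-selected libraries of 6 atrial fibroblast cultures were sequenced as paired reads. The submitters' processing notes name bcl2fastq, HISAT2 2.1.0, HTSeq 0.12.4 and the build rn6. The authors deposited counts of reads per gene, without normalization, and TPM values, which were not tested and are not printed. Strand use in counting is not given in the sources used here. The deposited enrichment and comparison tables hold the authors' own fold changes and p-values and were not used.

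The whole table was filtered by filterByExpr, normalized by TMM and fitted in edgeR 4.0.16 (R 4.3.3) with the quasi-likelihood F test and Benjamini-Hochberg adjustment over 14852 genes. Normalized counts were put on the scale of an average library. Standard errors are the log2 fold change over the root of F, and intervals are at 95%. Count intervals and the floor of 3 reads cover counting error only. On simulated data (14821 genes tested), 100 of 100 genes changed 2-fold were recovered and 10 unchanged genes called. The common biological coefficient of variation was 0.089. Recovery was not measured separately for rows near 20 reads or for rows of wide spread, such as Rn18s (coefficient of variation 66.6% in si-NC). It therefore does not show how many changed members would be found. Named genes were every called member, members of the role lists, the 10 highest means, the extremes in fold change and spread, and rows at the minimum. Some were picked after their values were seen (Lnc215, Trnp and the row beside Cd99). A few named results are left out here. The members and lists were chosen with earlier results of these data known. Promoters and microRNAs came from RefSeq (GRCr8).

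Alternatives were DESeq2 1.42.0 size factors and Wald test, upper-quartile normalization, edgeR's exact test, no filter beyond 1 count, a replicate block, leaving out each library in turn, and count minimums of 10 and 50.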

Additional observations from a re-analysis of the deposited data

How the results depend on the processing

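The count of called members, 9 of 143, was 9 to 12 with DESeq2 size factors, upper-quartile normalization, DESeq2's Wald test and a minimum of 10, and 7 with a minimum of 50. It was 16 with edgeR's exact test and 26 with no filter beyond 1 count (the cause was not tested). Leaving out 1 library gave 5 to 19, with 14 without si-NC 1, 19 without si-NC 3, and 5 without si-GPD1L 1 or si-GPD1L 2. Members past both thresholds numbered 3 (3 to 4 with 1 library left out), and 1 with a minimum of 50, which both antisense rows do not reach. The median log2 fold change was -0.0289 with upper-quartile normalization, 0.0113 with a minimum of 50, and -0.0254 to 0.0168 with 1 library left out. Chosen after seeing the data, removal of the trend on gene length gave 11 calls and a median of 0.0304, and members without a protein-coding gene on their strand gave 7 calls.

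Replicate numbers did not pair the libraries: the deviations of same-numbered libraries correlated at 0.040, -0.0036 and 0.047. With the replicate block, 12 members were called and the median was -0.0024.

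Vof16, both antisense rows and the third lincRNA row of chromosome 1 were called under all 13 alternatives fitted. Some calls were lost at fold changes close to the reported ones: the rows within Syne2 (0.55 to 0.60) and Smg1 (0.37 to 0.44) and the lincRNA row near Lrrc32 (-0.49 to -0.58) without si-NC 2 or any 1 si-GPD1L library, and Ndufb1 (-0.49 to -0.54) without any 1 si-GPD1L library. The latter pair also missed the threshold with the length trend removed (-0.42 and -0.28). Gas5 was called under 7 of 13. Signs turned among members that were not called: Ftx (0.17 without si-NC 1, 0.063 without si-GPD1L 2, 0.00116 with the length trend removed, and -0.20 to 0.17 over the libraries left out), Khps1a (-0.031 without si-GPD1L 2, up to 0.24 without another library), Lnc134 (-0.084 without si-NC 3, up to 0.26 without another) and Snhg4 (0.094 with the length trend removed).

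Depth limits rows near 20 reads: Snhg4 had a standard error of 0.28 on the log2 scale, and Vof16 of 0.09.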
